A study of Mus musculus with 9 samples.

Results

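The accessible chromatin of tissue-converted peritoneal macrophages was compared with that of monocyte-derived peritoneal macrophages, using the 1 merged ATAC-seq peak list that the authors deposited for each group. A peak was called shared where it overlapped a peak of the other list by at least 1 bp. The members are all 15552 peaks of the converted list and all 33694 peaks of the monocyte-derived list, 49246 of the 73594 peaks in the 3 lists of the series. All mice carried a Cx3cr1creER-YFP allele, which expresses a tamoxifen-dependent Cre recombinase from the Cx3cr1 gene, and a Cre-dependent R26tdTomato reporter, both over a wild-type allele. All mice were also injected every other day, over the 4 days before harvest, with IL-4 complexes made of 5 µg of IL-4 and 25 µg of anti-IL4. The monocyte-derived group had received 2 ml of thioglycollate, a sterile irritant that recruits blood monocytes to the peritoneum, and was harvested on day 4. The converted group had received 2 ml of thioglycollate and 8 weeks of tamoxifen diet. Each group had 3 samples, merged by the authors into 1 list, so that there is no spread between replicates to set a difference against. Time after thioglycollate, tamoxifen and cell state differ together between the groups and cannot be told apart. The sources used here give neither the age of the mice nor the gates of the sort.

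Peritoneal macrophages include a long-lived resident population marked by the transcription factor GATA6 and cells that are recruited from blood monocytes. Recruited cells can persist and take on features of the residents, and IL-4 drives both kinds towards alternative activation, with genes such as Arg1, Retnla and Chil3. ATAC-seq marks open DNA, which lies mostly at the starts of genes and at enhancers bound by factors such as PU.1, C/EBP and AP-1.

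Each peak comes with a p-value from the authors and no read count, so depth is unknown and a missing peak may be closed DNA or DNA below detection. The monocyte-derived list holds 2.17 peaks per converted peak and covers 6.32 Mb against 2.46 Mb. P-values stop at a floor of 1e-12, which was reached by 19.9% of converted and 18.5% of monocyte-derived peaks. Of the converted peaks 0 lie above 1e-05, and of the monocyte-derived peaks 1267 do. Counts are therefore given over all peaks and, for the gene lists and most genes named with them, also with the monocyte-derived list shortened to the 15552 peaks of smallest p-value, called equal list lengths below. Only 1 list is shortened there, so the 2 lists then end at unlike p-values. The kept monocyte-derived peaks lie at or below that list's median p-value of 3.36e-06, while 5135 converted peaks over 5e-06 stay. Gains on the converted side at equal list lengths are therefore partly by construction. The 95% intervals of shares are Wilson intervals and those of differences Newcombe intervals. They cover counting error over peaks only, not the error between mice.

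The results turn on promoters that were open in 1 list only or in both, and 6 of them are shown so that the 3 classes can be compared. Each sequence is the 250 bases before an annotated start, from RefSeq on GRCm38, the build of the lists, read 5′ to 3′ on the strand of the gene. Capitals mark matches to the motifs described with the promoters further on that lie inside the 1 peak per list that was taken for the promoter.

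Fmn1, converted only, chr2:113327486-113327735, plus strand: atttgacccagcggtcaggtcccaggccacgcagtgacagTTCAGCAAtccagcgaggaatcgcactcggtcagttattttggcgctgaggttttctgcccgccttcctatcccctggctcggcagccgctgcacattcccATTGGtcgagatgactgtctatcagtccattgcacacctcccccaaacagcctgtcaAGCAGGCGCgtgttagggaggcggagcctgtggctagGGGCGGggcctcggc
Irs1, converted only, chr1:82291440-82291689, minus strand: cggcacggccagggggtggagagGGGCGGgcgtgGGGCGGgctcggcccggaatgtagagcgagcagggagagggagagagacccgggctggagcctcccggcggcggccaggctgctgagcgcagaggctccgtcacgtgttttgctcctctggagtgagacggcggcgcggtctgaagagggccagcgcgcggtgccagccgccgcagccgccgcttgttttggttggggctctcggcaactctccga
Tln1, monocyte-derived only, chr4:43562584-43562833, minus strand: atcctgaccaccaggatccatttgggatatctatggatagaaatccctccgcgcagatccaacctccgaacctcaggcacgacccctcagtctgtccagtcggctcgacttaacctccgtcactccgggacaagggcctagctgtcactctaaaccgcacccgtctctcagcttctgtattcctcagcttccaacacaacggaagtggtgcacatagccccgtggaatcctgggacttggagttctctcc
Atf4, monocyte-derived only, chr15:80254934-80255183, plus strand: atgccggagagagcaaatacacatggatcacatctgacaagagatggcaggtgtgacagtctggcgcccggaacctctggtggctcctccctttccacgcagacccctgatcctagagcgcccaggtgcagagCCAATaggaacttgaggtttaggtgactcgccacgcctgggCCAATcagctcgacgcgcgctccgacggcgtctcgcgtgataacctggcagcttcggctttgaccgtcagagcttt
Garnl3, both lists, chr2:33130620-33130869, minus strand: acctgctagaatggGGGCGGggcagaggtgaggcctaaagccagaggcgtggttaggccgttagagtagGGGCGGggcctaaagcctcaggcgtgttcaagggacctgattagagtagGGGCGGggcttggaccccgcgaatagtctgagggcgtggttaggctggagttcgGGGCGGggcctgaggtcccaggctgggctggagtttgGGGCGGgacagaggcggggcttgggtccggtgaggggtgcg
Hspa5, both lists, chr2:34771840-34772089, plus strand: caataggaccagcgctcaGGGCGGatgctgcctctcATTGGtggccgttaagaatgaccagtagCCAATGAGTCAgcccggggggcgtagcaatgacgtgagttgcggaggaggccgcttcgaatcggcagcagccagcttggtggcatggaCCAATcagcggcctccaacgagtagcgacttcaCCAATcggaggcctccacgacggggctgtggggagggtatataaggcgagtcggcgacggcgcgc

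Fmn1 encodes an actin-nucleating formin, and its converted peak at the floor covered 222 of these 250 bases. Its capitals are, in order, matches to the C/EBP, NFY, CTCF and KLF and SP motifs. Irs1 encodes an adaptor of the insulin receptor, and the converted peak taken for it covered 126 bases. A second converted-only peak, from -0.15 to -0.075 kb of the start, overlaps that peak and is not part of this count. It holds a match to CACGTG, the motif of MITF and USF, which is left in small letters. Tln1 encodes talin, which links integrins to actin, and the monocyte-derived peak covered 130 bases, with no motif match in the covered part. Atf4 encodes a transcription factor of the integrated stress response and had 220 bases covered by a monocyte-derived peak and 0 by a converted one. Garnl3, one of the genes of resident peritoneal macrophages, and Hspa5, which encodes the endoplasmic reticulum chaperone BiP, were covered in both lists. Irs1, Tln1 and Garnl3 were taken by smallest p-value among the genes of the lists below, Fmn1 as the gene of a strong converted-only peak, and Atf4 and Hspa5 after their values were seen.

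Most open regions of converted macrophages were also open in monocyte-derived macrophages, while most monocyte-derived regions were missing from the converted list. Of the 15552 converted peaks, 14102 (90.7%, 90.2 to 91.1%) overlapped a monocyte-derived peak and 1450 (9.32%) did not. Of the 33694 monocyte-derived peaks, 12184 (36.2%, 35.6 to 36.7%) overlapped a converted peak and 21510 (63.8%) did not. With lists of equal length the shares moved towards each other, to 65.1% of converted and 54.3% of monocyte-derived peaks. Once overlapping peaks of both lists were merged, 33087 regions remained: 11770 shared, 1345 converted only and 19972 monocyte-derived only.

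The unshared peaks were mostly the weak ones. Among converted peaks at the floor 99.0% were shared, against 85.6% of those with p-values over 5e-06. Among monocyte-derived peaks 89.6% were shared at the floor, 33.3% between the floor and 1e-06, and 17.6% over 5e-06. The fall along the p-values was thus far steeper in the monocyte-derived list, as the plot of overlap by p-value shows. At the floor itself 31 of 3093 converted peaks (0.707 to 1.42%) and 648 of 6236 monocyte-derived peaks (10.4%, 9.66 to 11.2%) were unshared.

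**Figure D1:**
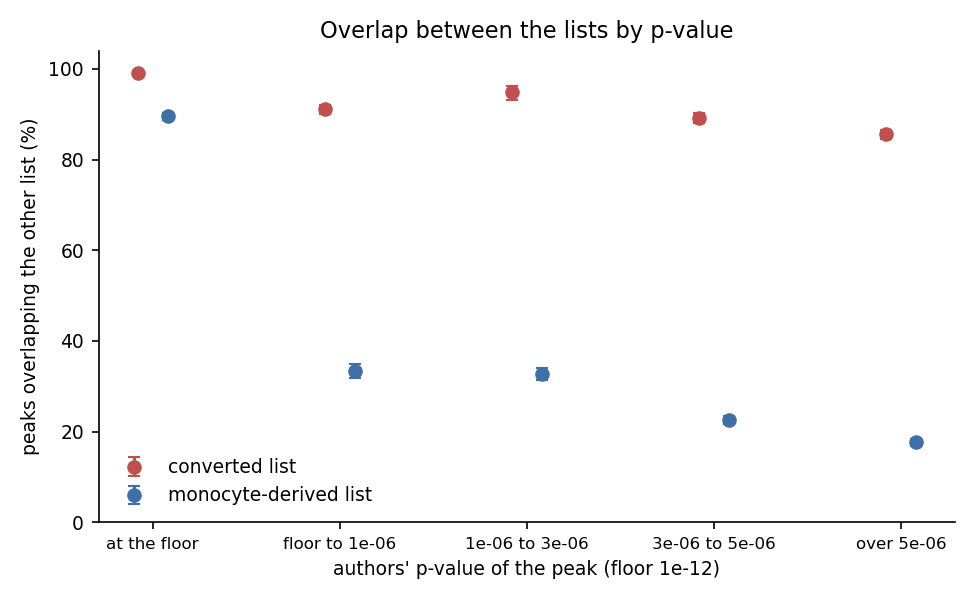
Percent of peaks of each list (vertical axis) that overlap a peak of the other list by at least 1 bp, in 5 bins of the authors' p-value (horizontal axis), with 95% Wilson intervals. Converted peaks stay between 85.6% and 99.0%, while monocyte-derived peaks go from 89.6% at the floor to 17.6% in the weakest bin.

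Shared regions had the same place but not the same extent in the 2 lists. Of the 11770 shared regions, 9380 (79.7%) were made of 1 peak from each list, and in these pairs the midpoints lay a median of 12.5 bp apart. The monocyte-derived peak was the wider one in 7716 pairs (82.3%), the converted peak in 682 (7.27%), and the others were equal. Median widths in the pairs were 150 bp for converted and 250 bp for monocyte-derived peaks. In 1757 further regions several converted peaks lay inside 1 monocyte-derived peak, and the reverse held in 367. In 2125 pairs the monocyte-derived peak alone was at the floor, against 310 pairs where the converted peak alone was. Since the depths are unknown, the p-values of the lists give no order of openness.

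Unshared peaks were narrow, and most of them lay far from any peak of the other list. The median gap was 11.15 kb for converted-only and 20.025 kb for monocyte-derived-only peaks. Median widths were 125 bp for shared and 100 bp for unshared converted peaks, and 250 bp and 125 bp for monocyte-derived peaks. Of the converted-only peaks 18.0% lay within 200 bp of a monocyte-derived peak, and of the monocyte-derived-only peaks 10.4% lay that close to a converted peak, a difference of 7.56 percentage points (5.62 to 9.66). At the other end, 12.7% of converted-only and 15.9% of monocyte-derived-only peaks lay over 100 kb from the other list. Converted-only peaks are set against 33694 peaks here and monocyte-derived-only peaks against 15552. Gaps were not compared at equal list lengths, and the part of list length in these differences was not tested.

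The strongest converted-only peaks lay at genes of several kinds and mostly away from any monocyte-derived peak. All 31 at the floor are narrow sites of at most 325 bp, and 23 of them lay over 10 kb from the nearest monocyte-derived peak. Of the 29 with annotated starts on their chromosome, 9 lay within 1 kb of a start. Il21r and Fmn1 have such a peak at their start and are given first.

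The peak at chr7:125603414-125603663 covered the start of Il21r, which encodes the receptor for interleukin 21. Il21r had 3 converted and 4 monocyte-derived regions, so the gene was open in both lists but its start was called in the converted list alone. The nearest monocyte-derived peak was 1.425 kb away. The peak at chr2:113327514-113327788 covered the start of Fmn1, whose sequence is given above, and the nearest monocyte-derived peak was 69.975 kb away. Fmn1 had 8 converted and 10 monocyte-derived regions, most of them far inside the gene and shared. In both genes, then, the start was open in the converted list alone. With equal list lengths both had more converted regions, by 2 at Il21r and 3 at Fmn1.

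Further peaks of this kind overlapped genes. Cth, which encodes the cysteine-forming enzyme cystathionine gamma-lyase, had a peak at chr3:157924989-157925263, across the end of the gene with the higher coordinates, and 2 converted against 0 monocyte-derived regions. Unc5c, which encodes a netrin receptor, had one inside the gene at chr3:141797839-141798113 and likewise 2 against 0 regions. A peak also lay inside Ebf2, which encodes a transcription factor of the early B-cell factor family, 45.225 kb from the nearest monocyte-derived peak, and one inside Gm4841. None of these 4 genes is one of the macrophage genes listed below. The other peaks among the 10 strongest lay outside genes, nearest to Col19a1 (26.1 kb), Clca4b (0.559 kb), Efnb2 (165 kb) and Ppp1r14bl (82.5 kb). The one nearest to Col19a1 lay 0.125 kb from a monocyte-derived peak. Peaks in sequence that also occurs elsewhere in the genome were not filtered out, and their part among these strongest peaks was not tested.

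The strongest monocyte-derived-only peaks lay both at gene starts and far from them. The 10 peaks lay nearest to Mapre2, Otud1, Itpripl2, Cep95 and Ddx5, Mylk2, Usp38, Rhoa and Tcta, Flrt2, Brd2 and Pecr. Rhoa encodes a GTPase that controls the actin cytoskeleton, Brd2 a reader of acetylated histones, and Ddx5 an RNA helicase. The peaks at Ddx5 and Tcta covered the start and that at Brd2 lay 0.262 kb from one, whereas those nearest to Otud1 and Usp38 lay 29.1 and 65.9 kb from the nearest start. Some lay next to a peak of the other list: those at Cep95 and Ddx5, Flrt2 and Pecr lay 0.025, 0.075 and 0.050 kb from a converted peak. Over all 648 such peaks, 74 lay within 200 bp of a converted peak and 386 (59.6%) over 10 kb away. Of those with annotated starts on their chromosome, 169 of 624 (27.1%, 23.7 to 30.7%) lay within 1 kb of a start.

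Peaks that the lists share were mostly at gene starts, and unshared peaks were mostly not. Within 1 kb of the start of a protein-coding gene lay 53.3% of shared converted peaks and 21.8% (19.7 to 24.0%) of converted-only peaks, a difference of -31.6 percentage points (-33.8 to -29.2). For monocyte-derived peaks the shares were 52.9% and 26.9% (26.3 to 27.5%), a difference of -26.0 points (-27.1 to -24.9). Converted-only peaks were thus somewhat less often at starts than monocyte-derived-only peaks, by 5.17 points (the difference was -5.17, -7.34 to -2.84). At equal list lengths this turned around, with 37.9% against 27.3%, a difference of 10.7 points (8.97 to 12.3), so its direction depends on list length. With p at most 1e-10, which keeps only the floor peaks of both lists, the difference was -2.75 points. Its interval, -7.87 to 2.42, includes 0. Over 50 kb from any start in the table lay 36.6% of converted-only and 29.6% of monocyte-derived-only peaks. Similar shares lay inside protein-coding genes, 63.2% and 62.7%, a difference of 0.448 points (-2.15 to 2.98). The table used here holds starts for 17274 of the 21631 genes, so some distances are too long, and chromosome 18 is left out because it has none there.

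**Figure D2:**
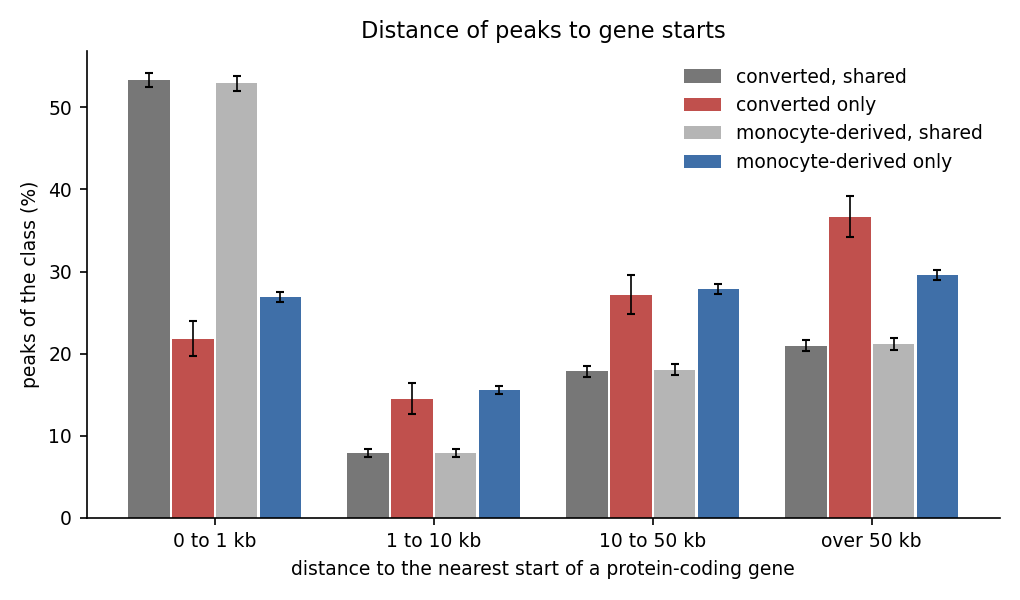
Percent of the peaks of each class (vertical axis) by distance to the nearest annotated start of a protein-coding gene (horizontal axis), with 95% Wilson intervals and without chromosome 18. Shared peaks of both lists stand above 50% within 1 kb, while converted-only peaks reach 21.8% there and 36.6% beyond 50 kb.

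Differences between the lists were spread over all chromosomes. The number of monocyte-derived peaks per converted peak ran from 2.04 on chromosome 9 to 2.60 on X, with 2.49 on chromosome 19. Converted-only peaks were 6.18% of the converted peaks on X and 12.2% on chromosome 1, the extremes of their range. Monocyte-derived-only peaks ranged from 61.5% on chromosome 3 to 69.9% on X, with chromosome 19 close to X at 69.7% (66.7 to 72.5%). X thus stood at an end of both ranges, 6.17 points (2.56 to 9.55) above the autosomes for monocyte-derived-only peaks. For converted-only peaks it lay 3.20 points below the autosomes, with an interval of the difference, -5.59 to 0.449, that includes 0.

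**Figure D3:**
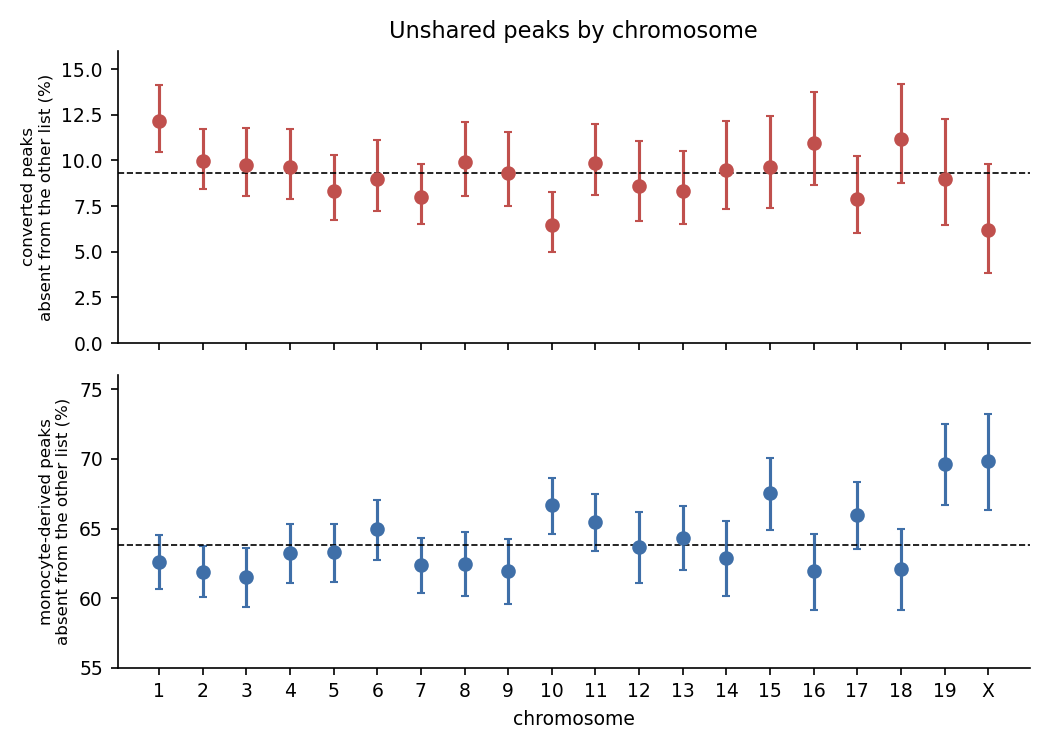
Percent of converted peaks absent from the monocyte-derived list (upper panel) and of monocyte-derived peaks absent from the converted list (lower panel, axis not from 0) on chromosomes 1 to 19 and X, with 95% Wilson intervals and the value over all chromosomes as a dashed line. X is lowest in the upper panel at 6.18% and highest in the lower at 69.9%.

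Unshared peaks were thinly spread, with a few dense places. In windows of 500 kb, 27.9% of 3521 windows held a converted-only peak and 90.9% a monocyte-derived-only peak. The densest window for both was chr11:3000001-3500000, with 20 converted-only and 58 monocyte-derived-only peaks beside 109 and 92 shared ones. It holds Sfi1, which encodes a centrosomal protein and had 93 converted and 118 monocyte-derived regions. With floor peaks alone Sfi1 had 41 and 76. Peaks in sequence that occurs more than once in the genome were not filtered out here. The part of such sequence in the dense windows was not tested. Next among converted-only peaks came chr1:24500001-25000000 with 9, which holds Col19a1 and Lmbrd1. After it came chr1:194500001-195000000 with 7, which holds Plxna2 and Cd34, and chr4:95000001-95500000 with 7, which holds Jun. Monocyte-derived-only peaks were next most dense in chr8:126500001-127000000 with 35, around Irf2bp2, Tomm20 and Rbm34, and in chr17:35500001-36000000 with 34 and 0 converted-only peaks. Without the densest windows the shared shares were 90.8% and 36.1%.

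Across genes, nearly all differences pointed to more open regions in monocyte-derived cells. Regions were counted in each of 21631 protein-coding genes with 10 kb on each side, and 13218 genes had at least 1. These counts are not scaled by gene length, and a region that lies in the windows of several genes counts for each of them. More converted than monocyte-derived regions were found at 402 genes (3.04%) and more monocyte-derived regions at 9823 (74.3%), with a median difference of -1. At equal list lengths 2897 of 11272 genes (25.7%) had more converted and 4169 (37%) more monocyte-derived regions, with a median of 0. With the floor peaks alone the counts were 345 (5.55%) and 3569 (57.4%) of 6216 genes. A region was found in the converted list alone at 203 genes (1.54%) and in the monocyte-derived list alone at 3875 (29.3%). The share of a gene list has to be read against these backgrounds.

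The largest differences in favour of converted cells were small in number. Tgfb2, which encodes transforming growth factor beta 2, had 4 converted and 0 monocyte-derived regions, 3 of them just past its start. Hspa5 had 4 and 1, with the promoter peak shown above shared and 3 converted-only peaks between 6.95 and 7.54 kb past the start, beyond the end of the gene. Fer, which encodes a tyrosine kinase, Eml1 and Tspan9 also had 4 and 1. The converted-only peaks at Tgfb2 had p-values between 4.70e-06 and 5.61e-06, which places them in the weaker bins of the list. In the other direction the largest difference was at Sfi1, in the densest window above, to which the limit given there applies. Then came Vps13d with 8 and 31, Zmiz1 with 0 and 22, Sgms1 with 2 and 20, and Arhgap26 with 6 and 23. With equal lengths these became 93 and 96 at Sfi1, 8 and 18 at Vps13d, 0 and 8 at Zmiz1, 2 and 9 at Sgms1 and 6 and 10 at Arhgap26. Zmiz1 encodes a transcriptional coregulator and had no converted region at all.

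The macrophage label was checked against 12 defining genes, all of which had more monocyte-derived than converted regions (74.3% of all genes did). In sum they had 34 monocyte-derived against 8 converted regions, where all genes had 36619 against 15979. Spi1, which encodes the lineage factor PU.1, had 0 converted and 3 monocyte-derived regions. Tyrobp, which encodes an adaptor of myeloid receptors, had 0 and 6, and Adgre1, which encodes F4/80, 0 and 1. In the converted list 7 of the 12 genes had no region, while Csf1r with 1, Cd68 with 2 and Lyz2 with 1 were among those that did. When the lists had equal lengths only 8 of the 12 had a region, 4 with more monocyte-derived and 2 with more converted ones, and Spi1, Tyrobp and Adgre1 had 0 in both lists. Sites of macrophage genes are thus present in both lists, and those of these 3 genes rest on the weaker monocyte-derived peaks.

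Markers of other cell types were open in places. Of all 21631 protein-coding genes 13218 had a region, which is the background for the counts of markers with one. For the sums below the background is 15979 converted against 36619 monocyte-derived regions over all genes. The defining B-cell genes Ms4a1, Pax5 and Ebf1 had 0 regions in either list, and Cd79a had 2 in each. Of the 15 B-cell markers 9 had a region, 10 converted against 36 monocyte-derived in sum, most of the latter at Bach2 with 3 and 19 (4 and 6 at equal list lengths). Of 18 T and NK cell markers 9 had a region, 4 against 13 in sum, with Cd3e, Bcl11b and Ncr1 at 0 in both lists. Of 16 neutrophil markers 8 had a region, 3 against 12, with Ly6g and Elane at 0. Of 18 mesothelial and stromal markers 6 had a region, 4 against 7, with Msln, Upk3b, Wt1 and Col1a1 at 0. Of 18 eosinophil and mast cell markers only Siglecf, with 1 and 4, and Hdc, with 0 and 1, had one. Dendritic cell markers had the largest share with a region of these lists, 14 of 16, with 17 against 60 regions in sum. More monocyte-derived regions were found at 12 of the 14 (85.7%, against 74.3% of all genes). At equal list lengths 7 of 11 had more monocyte-derived and 3 more converted regions (63.6% and 27.3%, against 37% and 25.7% of all genes). Among them were Bcl11a with 0 and 9, Sirpa with 2 and 9 and Zbtb46 with 4 and 7. These 3 had 0 and 3, 2 and 4, and 4 and 6 at equal list lengths. Several of these are also expressed by macrophages, and the part of such cells in the results was not tested.

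Genes of large peritoneal macrophages gave the highest share with more converted regions at equal list lengths of the 20 lists plotted by group. Over all peaks 3 of the 20 with a region had more converted and 15 more monocyte-derived regions, with a median of -1, equal to that of all genes. When the lists had equal lengths 7 had more converted and 7 more monocyte-derived regions of 15 (46.7% each, against 25.7% and 37% of all genes). The 3 genes were Tgfb2, Garnl3 with 3 and 2, and Gata6, the residents' defining factor, with 2 and 0. Both peaks at Gata6, chr18:11052289-11052413 and chr18:11052439-11052538, lay at the end of the gene with the lower coordinates and had p-values of 4.87e-06 and 5.61e-06. Other resident genes had no region in either list, among them Timd4, Icam2, Alox15 and Cxcl13. Rarb, which encodes a retinoic acid receptor, had 3 and 7, and Laptm5, which encodes a lysosomal membrane protein, 0 and 5 (3 and 4, and 0 and 3, at equal list lengths). The list was therefore not open as a whole in either direction.

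Genes of monocytes and of antigen presentation had fewer converted regions, as most genes did. Of the 18 monocyte and small peritoneal macrophage genes with a region, 16 (88.9%, against 74.3% of all genes) had more monocyte-derived regions and 0 more converted ones, with a median of -2. With equal lengths 8 and 4 of 13 did (61.5% and 30.8%, against 37% and 25.7% of all genes). S100a4 and S100a6, neighbouring genes of calcium-binding proteins whose counted windows overlap, each had 0 converted and 6 monocyte-derived regions. Lyz2 had 1 and 4. At equal list lengths S100a4 and S100a6 each had 0 and 4, and Lyz2 had 1 and 2. Ccr2, the receptor that draws monocytes out of the marrow, had no region in either list, and Cx3cr1 had 0 and 2 over all peaks and none in either list at equal lengths. The MHC class II list had 12 of 12 genes with more monocyte-derived regions, and at equal list lengths 6 of 10 (60%), with 3 (30%) the other way. Cd74, the invariant chain, had 0 and 6, none at the floor, Cd86 had 1 and 10, and H2-DMa had 3 and 9. The window counted for H2-DMa takes in all of its neighbour Brd2, so regions at Brd2 are among those of H2-DMa. With equal lengths Cd74 had 0 and 1, Cd86 1 and 4, and H2-DMa turned to 3 and 2.

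The genes of alternative activation, a response to the IL-4 that both groups had received, differed between the lists about as often as genes did in general. Of 27 with a region, 22 (81.5%, against 74.3% of all genes) had more monocyte-derived regions and 1, Ucp1 with 1 and 0, more converted ones. Arg1, which encodes arginase 1, had 2 and 8 regions, including a monocyte-derived-only peak at the floor at chr10:24911264-24911588, outside the gene. Retnla, which encodes RELM alpha, had 0 and 2, both at its start. Mrc1, the mannose receptor, had 0 and 3, Pdcd1lg2, which encodes PD-L2, 0 and 2, Chil3 0 and 1, and Pparg 0 and 2. Irf4, a factor induced by IL-4, had 1 region at its start, which both lists shared. With equal lengths the counts were 6 and 10 of 21 genes (28.6% and 47.6%, against 25.7% and 37% of all genes), and Retnla, Chil3, Mrc1 and Pparg each had 1 monocyte-derived and 0 converted regions, Arg1 had 4 monocyte-derived and 2 converted ones, and Pdcd1lg2 had none in either list.

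Receptors and factors of the NF-kappaB and Toll-like receptor pathway held some of the stronger monocyte-derived-only sites, as genes of other lists did. Of 24 genes with a region 22 (91.7%, against 74.3% of all genes) had more monocyte-derived and 0 more converted regions. At equal list lengths 11 and 4 of 19 did (57.9% and 21.1%, against 37% and 25.7% of all genes). Tlr4, the receptor for lipopolysaccharide, had 1 and 7, and 3 of the monocyte-derived-only regions were at the floor. The region that both lists call at Tlr4, chr4:66827389-66827788, was itself at the floor in both. A monocyte-derived-only region at the floor was found at 3 of the 24 genes (12.5%), at 2 of 18 housekeeping genes (11.1%) and at 630 of all genes (4.77%). A converted-only one was found at 20 of all genes (0.151%). Nfkb1, which encodes the p50 precursor, had 1 and 12, with no monocyte-derived-only region at the floor, and like Tlr4 it had 1 and 4 at equal list lengths. Inflammatory mediator genes had more monocyte-derived regions at 17 of 18, and at 7 of 10 with 3 the other way at equal list lengths, among them Il10 with 0 and 5 and the neighbours Cxcl1 and Cxcl2 with 1 and 6 (0 and 1, and 1 and 3, at equal list lengths). Cxcl3 was the 1 gene with more converted regions, 1 against 0.

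Lineage factors had more monocyte-derived regions at 22 of 24 genes (91.7%, against 74.3% of all genes) and more converted regions at 0, with a median of -3. With equal lengths the counts were 11 and 6 of 23 (47.8% and 26.1%, against 37% and 25.7% of all genes), with a median of 0 as over all genes. Mef2c, a factor of myeloid and other lineages, had 4 and 17, with 3 monocyte-derived-only regions at the floor at chr13:83603939-83604138, chr13:83604389-83604563 and chr13:83609214-83609538. The lists also shared a region at chr13:83571989-83572338 that was at the floor in both. Fli1, an ETS factor, had 4 and 13, and Tfeb, a regulator of lysosome genes, 1 and 8. With equal lengths Mef2c had 4 and 12, Fli1 4 and 6, and Tfeb 1 and 1. Cebpa had 1 region and Id2 had 2 in each list. Csf1r and Maf had 1 and 2, and 1 and 3, and both turned to 1 and 0 at equal list lengths, so their direction rests on weak peaks.

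Scavenger receptor and lipid genes also had more monocyte-derived regions in most cases, as 74.3% of all genes did. At equal list lengths 37% of all genes had more monocyte-derived and 25.7% more converted regions. In the efferocytosis list 19 of 20 genes had more monocyte-derived regions over all peaks. At equal list lengths 8 of 17 (47.1%) did, against 4 (23.5%) with more converted ones. Elmo1, an activator of Rac in engulfment, was at 2 and 17 and Msr1, scavenger receptor A, at 1 and 10. Lipid handling genes had 26 of 29, with Lrp1 at 2 and 11, and at equal list lengths 12 against 3 of 24, with Lrp1 at 3 and 3, Elmo1 at 2 and 7 and Msr1 at 1 and 3. Soat1, which esterifies cholesterol, had 4 and 10 and turned to 4 and 2 at equal list lengths. Retinoid genes had 13 of 13 (7 against 1 of 11 at equal list lengths), with Dhrs3 at 5 and 13 (5 and 9). Dhrs3 lies inside Vps13d, so its regions are also counted there. Integrin and adhesion genes had 15 of 20, which is 75% and near the share of all genes, with Itgb2, the chain shared by leukocyte integrins, at 1 and 8 (1 and 4).

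**Figure D4:**
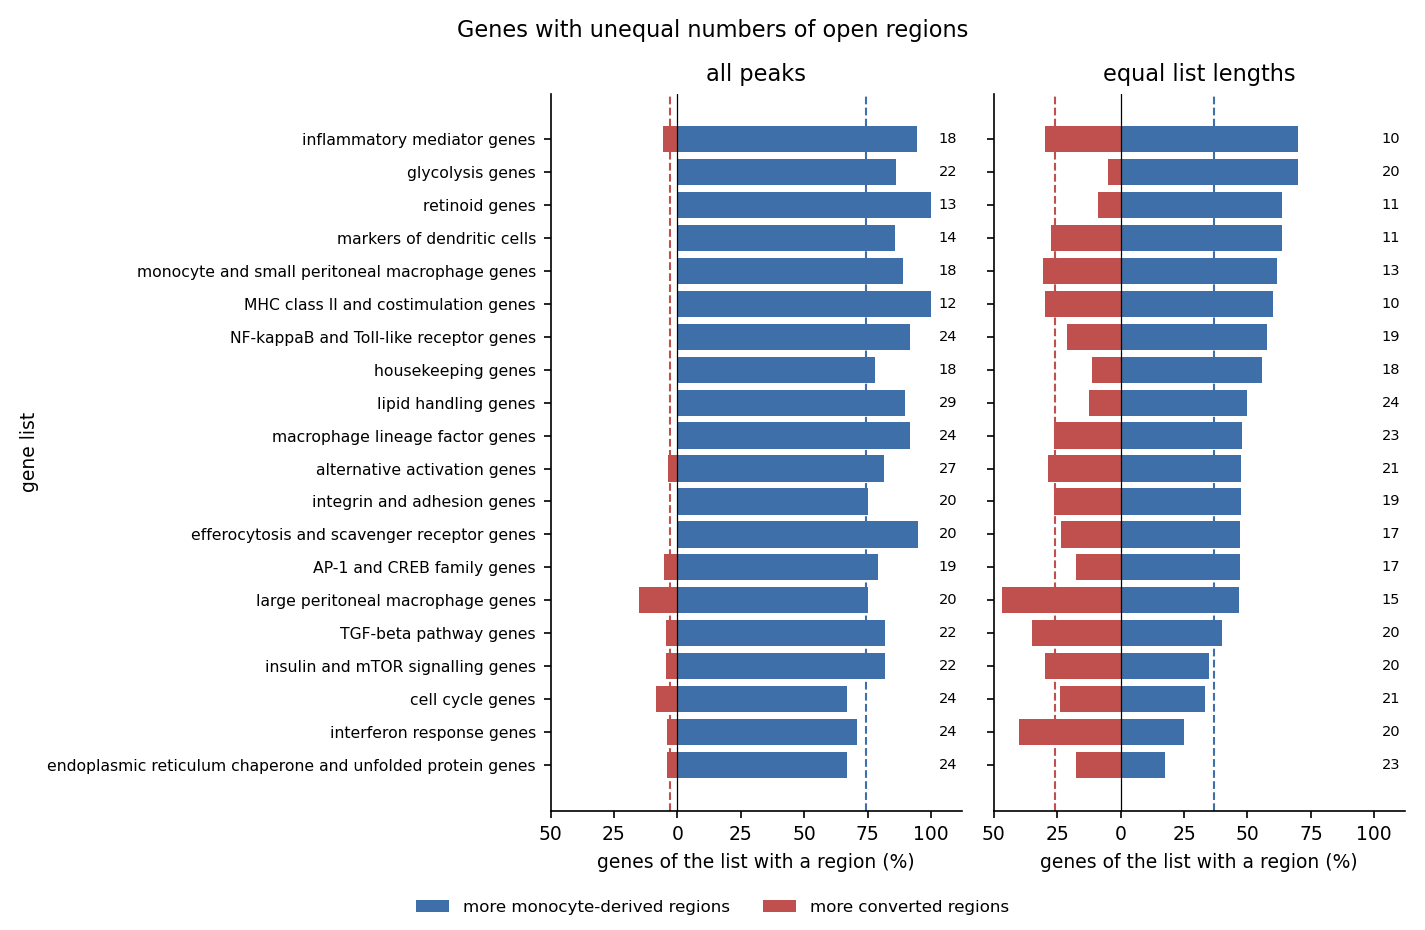
Percent of the genes with a region in 20 gene lists that had more converted regions (red, to the left) or more monocyte-derived regions (blue, to the right), over all peaks and at equal list lengths, with the same over all genes as dashed lines and the number of genes with a region at the right. At equal list lengths glycolysis genes are at 5.00% and 70.0%, and large peritoneal macrophage genes at 46.7% on both sides.

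Lists of housekeeping and metabolism genes show the range that genes open in both groups take. Glycolysis genes had 19 of 22 (86.4%, against 74.3% of all genes) with more monocyte-derived regions. At equal list lengths 14 of 20 (70%) did, against 1 (5%) with more converted ones, with a median of -1. The shares of all genes at equal list lengths were 37% and 25.7%. Pfkp, the platelet form of phosphofructokinase, had 1 and 10 with 2 monocyte-derived-only regions at the floor, and Slc2a1, the glucose transporter GLUT1, had 4 and 8 (1 and 4, and 4 and 7, at equal list lengths). Housekeeping genes, chosen as a reference, also had 14 of 18, and 10 against 2 of 18 at equal list lengths, so the glycolysis genes do not stand alone. The list of endoplasmic reticulum chaperones had 16 of 24, and at equal list lengths 4 against 4 of 23. Interferon response genes had 17 of 24, and at equal list lengths 5 against 8 of 20. Insulin and mTOR genes had 18 of 22, cell cycle genes 16 of 24, AP-1 and CREB family genes 15 of 19 and TGF-beta pathway genes 18 of 22, shares between 66.7% and 81.8% that lie on both sides of the 74.3% of all genes. In these, genes with more converted regions were Irs1 with 4 and 2, Cdkn2a and Mcm6 with 2 and 1, Jun with 4 and 3, Ifit1 with 1 and 0, Hspa5 and Tgfb2.

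**Figure D5:**
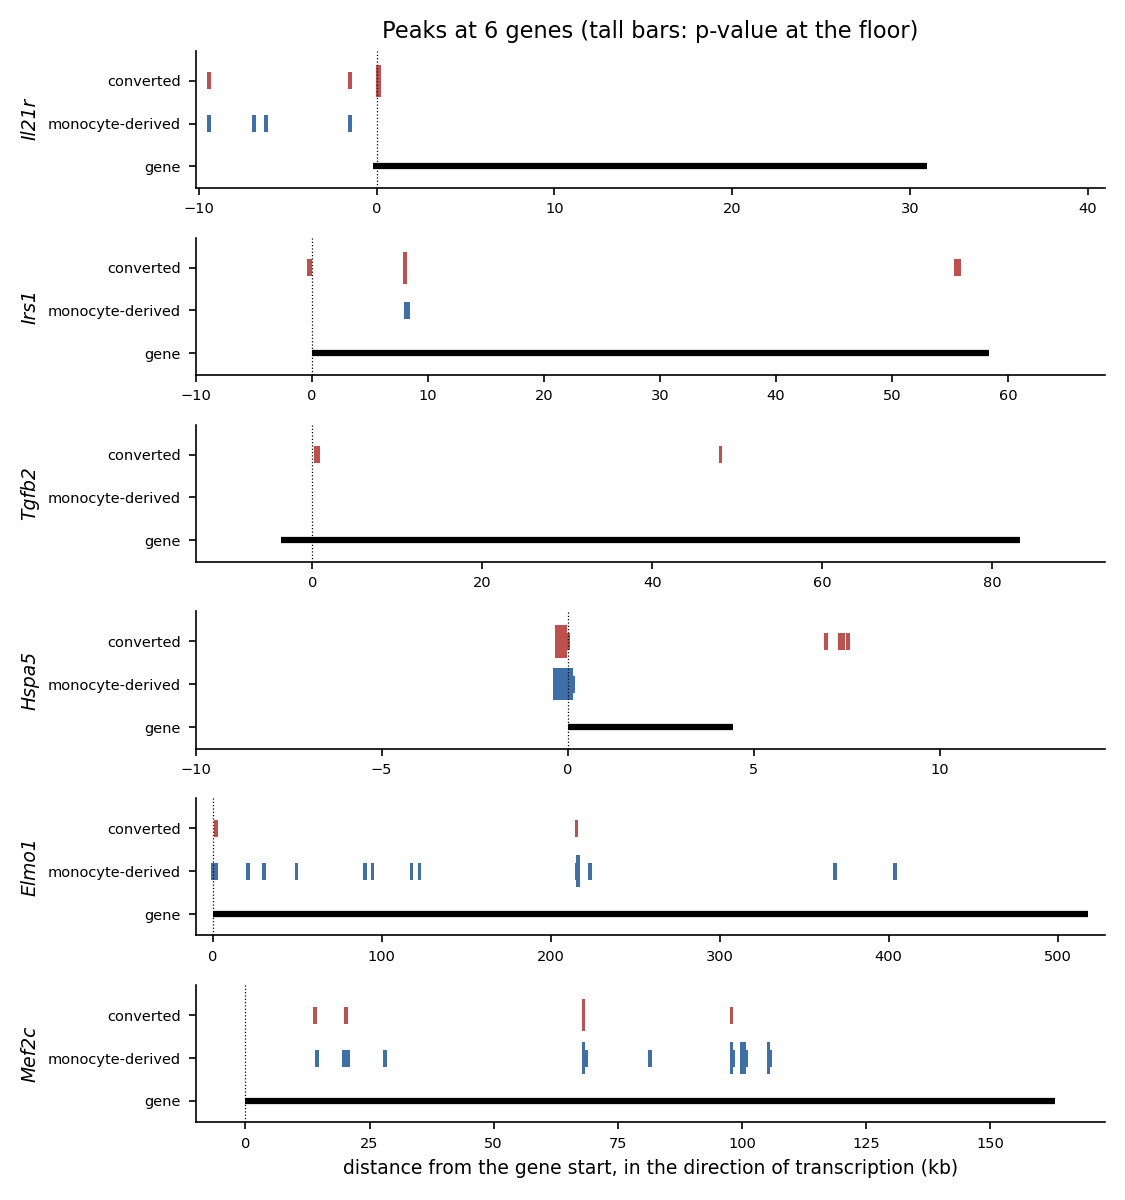
Peaks of both lists along 6 genes by distance from the gene start in the direction of transcription (kb), with the gene as a black line. Bars are single peaks, widened where too narrow to see, and tall bars are those with a p-value at the floor. Il21r and Irs1 have a converted-only peak at the start, Tgfb2 has 4 converted and 0 monocyte-derived regions, and Elmo1 and Mef2c have 17 monocyte-derived regions each.

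Irs1 shows a converted-only promoter and strong distal sites together. Besides the promoter peaks it had a region at chr1:82283264-82283488, inside the gene, that was at the floor in the converted list and not in the monocyte-derived list. A further converted-only peak at the floor, chr1:82150889-82151063, lay 82.0 kb outside the gene with Irs1 as the nearest gene. Mef2c shows the opposite, with monocyte-derived peaks at the floor that lie within a few kb of each other inside the gene.

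Promoters of chaperone, glycolysis and cell cycle genes were mostly open in both lists. A window of 250 bases before to 50 bases after the start was given for 17274 of the genes, and it held a peak of both lists at 4836 genes (28%), of the converted list alone at 118 (0.683%) and of the monocyte-derived list alone at 2504 (14.5%). Chaperone genes had both at 18 of 21, glycolysis genes at 15 of 21 and cell cycle genes at 13 of 19. Of the MHC class II genes 0 of 9 had both and 4 had the monocyte-derived peak alone. TGF-beta pathway genes had 4 with both and 8 with the monocyte-derived peak alone, of 17. Among the listed genes Irs1, Ifit1, Cr2 and S100a8 had the converted peak alone. Ifit1 encodes an interferon-induced protein, Cr2 a complement receptor of B cells and S100a8 a calcium-binding protein of neutrophils and monocytes.

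Promoter sequence differed between the classes. The 5345 windows open in both lists had a median GC content of 63.7%, the 135 open in converted cells alone 63.0%, the 2978 open in monocyte-derived cells alone 60.3% and the 12587 open in neither 51.7%. Windows of 1 gene can overlap and share sequence. Each of 19 short motifs was searched on both strands, and the share of all 21045 windows with a match is the background. Matches may overlap, as CCAAT and TGANTCA do in Hspa5.

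The motif of the factor NFY, CCAAT, was in 38.5% of all windows, in 47.4% of those open in both lists and in 32.4% of those open in monocyte-derived cells alone. The difference between the last 2 was 15.1 points (12.9 to 17.2), and among windows whose monocyte-derived peak was at the floor it was 18.7 points (11.6 to 25.1). The Hspa5 sequence above holds 4 matches and the Atf4 sequence 2, so single promoters do not follow the classes. The motif of KLF and SP factors, GGGCGG, was in 46.7% of all windows, in 76.2% of those open in both and in 62.8% of those open in monocyte-derived cells alone. It is GC-rich, and the part of GC content in this was not tested. In the Garnl3 sequence it occurs 5 times.

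The other motifs searched differed less between these classes, by 2.96 points or less in size. The PU.1-type ETS motif GAGGAAGT was in 3.15% of all windows, 3.27% of those open in both and 3.32% of those open in monocyte-derived cells alone, a difference of -0.0503 points (-0.885 to 0.728). The AP-1 motif TGANTCA was in 7.04% of all windows, with 3.85% and 5.37% in the same classes, and the GATA motif AGATAA in 9.68%, with 3.69% and 6.65%. The ELF and GABP type of ETS motif, CCGGAAGT, was in 5.20% of all windows, with 9.73% and 11.9%. In the 135 converted-only windows it had 1 match (0.131 to 4.08%), a value picked after it was seen. AP-1 was at 2.96% (1.16 to 7.37%) and GATA at 6.67% (3.55 to 12.2%) there, with intervals that include their shares of all windows. Between windows open in both lists and in monocyte-derived cells alone, the differences were -1.52 points for AP-1, -2.96 for GATA and -2.19 for ELF and GABP. Among windows with a monocyte-derived peak at the floor the intervals of all 3 differences included 0. Motifs with free letters N were TTGCNNAA for C/EBP, in 10.3% of all windows and in 7.0% and 8.66% of the same classes, and AGNNGGCGC for the core of CTCF, in 9.28%, 14.4% and 12.4%. A match describes letters in a window and is not a bound site.

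The remaining motifs are listed with their share of all windows. They were TGACGTCA for CREB (2.26%), TGCTGAC for MAF (4.35%), GGGANTTCC for NF-kappaB (1.86%) and AGGTCA for nuclear receptors (14.6%). Further ones were CACGTG for MITF and USF (7.91%), CTAAAAATA for MEF2 (0.413%) and TGTGGT for RUNX (14.7%). Motifs of 10 letters, given by name, were those of IRF (3.38%), STAT6 (6.41%), NRF1 (1.34%) and YY1 (1.22%). The IRF and NF-kappaB motifs of inflammatory genes were in 2.49% and 2.73% of windows open in both lists and in 3.02% and 2.32% of those open in monocyte-derived cells alone, and the intervals of both differences included 0. The STAT6 motif, bound downstream of IL-4, was in 4.73% and 5.98%, a difference of -1.24 points (-2.30 to -0.245).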

How the data were processed

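Sorted peritoneal macrophages were profiled by ATAC-seq, with Tn5 transposase treatment of nuclei and PCR amplification per the labels' protocols. The submitters' processing notes name Bowtie2 2.2.9 and the builds mm10 and GRCm38. How peaks were called, whether reads were shifted for the transposase, how duplicates were treated and how samples were merged are steps not given in the sources used here. Any of these steps can change the number and width of peaks. The deposited lists give a position and a p-value per peak as the authors made it, with no counts. The p-values were used only to rank and filter peaks within a list. Depth per sample is unknown.

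Peak starts were read as 0-based and are given 1-based. Peaks of both lists on chromosomes 1 to 19 and X were compared and overlapping ones merged to regions. Gene positions were those of RefSeq on GRCm38.p6, whose exons were not used here, so exonic and intronic positions are not stated. Starts and strands came from the RefSeq promoter table. Of 531 genes in 26 lists 528 were found. The 122 genes taken by rule, some of which are not reported here, were 20 fixed genes, the genes nearest the 10 strongest unshared peaks of each list, the 5 largest differences in each direction and the 3 largest in each gene list. The rule also names genes in the densest windows and those with a sequence shown, which are not counted in the 122. Other genes named were chosen after their values were seen. Members, lists and motifs were chosen with earlier results of these data known. With 1 merged list per group no test was possible. The scripts were tested on simulated data, where all of 2906 converted and 5436 monocyte-derived peaks were classed correctly. Python 3.11.15, numpy 2.4.6, pandas 2.3.3, statsmodels 0.14.6 and matplotlib 3.10.9 were used.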

Additional observations from a re-analysis of the deposited data

How the results depend on the processing

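With 1 merged list per group, no replicate could be left out. No paired analysis was possible because the replicates of each group were merged into 1 list. The share of converted peaks that were shared, 90.7%, became 89.6% where 50% or more of the shorter peak had to be covered, 92.3% with peaks within 200 bp counted as shared, 90.0% with p at most 1e-05 in both lists, 86.4% with p at most 1e-10, 65.1% at equal list lengths and 77.5% with the 50% of each list of smallest p. For monocyte-derived peaks, 36.2% became 35.6%, 42.3%, 37.2%, 42.5%, 54.3% and 34.0% in the same order. The setting of p at most 1e-10 is the same as floor peaks alone, with 3093 converted and 6236 monocyte-derived peaks. The difference in the share near starts, -5.17 points, became -2.75 with p at most 1e-10 (-7.87 to 2.42, an interval that includes 0) and 10.7 at equal list lengths. The 402 genes with more converted regions became 2897 at equal list lengths, and the 9823 with more monocyte-derived regions became 4169 there and 3569 with p at most 1e-10, by construction with fewer peaks. At equal list lengths the difference in regions turned to 1 at Ccnd3, Csf1r, H2-DMa, Igf1r, Irak3, Itga1 and Maf, to 2 at Il21r, Soat1 and Tcf4 and to 3 at Fmn1. With p at most 1e-10 it turned to -1 at Eml1 and 1 at Il21r. Of the 122 genes taken by the rule, 12 turned, not all of them reported here, and 20 kept their value at equal list lengths. Removing the densest windows, chosen after seeing the data, changed the 5 main values little. The shared shares became 90.8% and 36.1%, and the difference near starts became -4.65 points. Genes with more converted regions became 401 and those with more monocyte-derived regions 9792. The motif comparisons with 1 window per gene, with floor peaks and at equal list lengths were also added after seeing the data. Depth is unknown, and it limits every statement that a region is missing from a list.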

Other observations

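The monocyte-derived-only regions at the floor were spread over 630 genes, and the genes with the most are named here after their values were seen. Sfi1, in the densest window and with the limit given there, had 15 of them. Naa50, which encodes an acetyltransferase of protein N-termini, and Atp6v1a, a subunit of the proton pump of lysosomes, had 4 each. Vim, which encodes the intermediate filament protein vimentin, had 3. Atp6v1a had 0 converted and 6 monocyte-derived regions. Converted-only peaks at the floor were also found at the starts of Cadm2, Plxna2, Mlf1, Ctla2b and Rorb, and the one at Cadm2 lay 1805 kb from the nearest monocyte-derived peak. Plxna2 encodes a semaphorin receptor and Rorb a nuclear receptor.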
